A study of Homo sapiens with 48 samples.

Results

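The transcription factors PAX5, EBF1, TCF3, IKZF1 (Ikaros), IKZF3 (Aiolos), SPI1 (PU.1), ETS1, RUNX1 and RUNX3 take part in setting up and holding B cell identity. The set was proposed with earlier results of these data known, and its members, found by gene symbol, are 9 of the 37706 genes in a table of raw RNA sequencing read counts. All 9 were among the 17749 genes that passed the filter on low counts, IKZF3 and RUNX3 through other lines than SUDHL6, where both were near 0. RNA came from the established human lymphoma lines SUDHL6, Oci-Ly7, Oci-Ly8 and Oci-Ly18, which are of the GCB-DLBCL kind (diffuse large B cell lymphoma with a germinal centre profile). Each line was kept for 6 days in DMSO (the vehicle and control), in EPZ-5676 (DOT1Li, an inhibitor of the histone methyltransferase DOT1L, spelled EZP-5676 in some labels), in GSK343 (EZH2i, an inhibitor of EZH2, the catalytic subunit of the Polycomb complex that silences genes), or in both inhibitors (the combination, labelled Combo). Cells were reseeded with fresh inhibitor on day 3, and each of the 16 groups of a line and a treatment has 3 libraries. No group holds untreated cells or normal B cells, and each line comes from its own tumour. The labels do not say whether the 3 libraries of a group came from separate cultures, so the p-values cover the spread among libraries, which may be technical.

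B cell commitment begins with the E protein made from TCF3, which together with EBF1 switches on PAX5. PAX5 then activates B cell receptor signalling genes and represses genes of other blood lineages. Ikaros and Aiolos are zinc finger proteins that bind related sites and recruit chromatin remodellers. PU.1 and ETS1 belong to the ETS family, and RUNX1 and RUNX3 are DNA-binding partners of the same cofactor, CBFB. In germinal centre B cells these factors keep the B cell programme running, and EZH2 and its silencing mark are known to be high there.

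Library totals ran from 5174269 to 18845074 counts, with the second lowest at 11391942. Levels are given as CPM, counts scaled to the TMM-adjusted library total, and changes as log2 fold changes with their standard error (SE) from edgeR, called when the adjusted p over all 17749 genes was under 0.05. The 9 markers of germinal centre B cells summed to 1034 to 2722 CPM in the 48 libraries, and all 9 had counts in every library. Markers of T cells, mostly TRAC, summed to 5.06 to 60.8 CPM, of myeloid cells to 0.119 to 26.5 CPM and of NK cells to 0 to 22.6 CPM. Of the 6 T cell markers CD3D and CD2 had a median of 0 CPM over the 48 libraries, CD3G, CD3E and CD8A medians of 0.0578, 0.271 and 0.335 CPM and TRAC 10.9 CPM. Of the 6 myeloid markers CD163 and MPO had a median of 0 CPM, CD14, CSF1R, ITGAM and LYZ medians of 0.138, 0.182, 1.35 and 2.36 CPM. With the combination 3 of 4 tested myeloid markers, 1 of 4 T cell markers and 1 of 2 NK cell markers were called higher, where 46.4% of all genes were called in either direction, and their part in the results was not tested. The inhibitors act on proteins, and the RNAs of their targets were present in every library (DOT1L 79.5 to 174 CPM, EZH2 177 to 325 CPM). Oci-Ly8 DMSO replicate 3 and Oci-Ly8 DOT1Li replicate 3 stood apart. In them log2 levels fell with exonic length, with slopes of -0.32 and -0.30 per doubling of length over 11518 protein-coding genes, against -0.10 or more in every other library. Long members such as PAX5, IKZF1, ETS1 and RUNX1 read low in these 2 libraries. Treatment effects in Oci-Ly8 that rest on these libraries are therefore also given without both. Comparisons of DMSO levels between lines were not rerun without them.

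Promoter sequences from RefSeq (GRCh38.p14) were matched by symbol for 6 of the 9 genes (not IKZF3, SPI1 or ETS1), with 9 windows in all, each running from 250 bases before to 50 bases after a transcription start. The 250 bases before the start are printed for 3 of these 6: RUNX3 (both of its starts), which ran from the highest level in Oci-Ly7 to almost none in SUDHL6, EBF1, which was called higher with EZH2i in every line, and IKZF1, which fell furthest in SUDHL6. They are given 5′ to 3′ on the gene's strand. Capitals mark matches, on either strand, to 6 or 8 letters of known sites: TGTGGT for RUNX proteins, AGGAAG for ETS proteins, CAGCTG for E proteins, TGGGAA for Ikaros and CCCNNGGG for EBF1.
RUNX3 distal start, chr1:24965011-24965260, minus strand: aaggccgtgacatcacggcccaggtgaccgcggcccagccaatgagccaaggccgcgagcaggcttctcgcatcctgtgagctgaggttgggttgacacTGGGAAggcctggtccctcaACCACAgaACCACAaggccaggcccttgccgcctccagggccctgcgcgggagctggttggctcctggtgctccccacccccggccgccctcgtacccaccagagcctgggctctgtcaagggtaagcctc
RUNX3 proximal start, chr1:24930277-24930526, minus strand: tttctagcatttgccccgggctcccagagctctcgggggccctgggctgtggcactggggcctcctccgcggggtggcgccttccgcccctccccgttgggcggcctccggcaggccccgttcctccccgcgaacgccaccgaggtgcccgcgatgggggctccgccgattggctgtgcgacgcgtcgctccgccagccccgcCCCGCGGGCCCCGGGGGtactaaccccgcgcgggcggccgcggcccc
EBF1, chr5:159097957-159098206, minus strand: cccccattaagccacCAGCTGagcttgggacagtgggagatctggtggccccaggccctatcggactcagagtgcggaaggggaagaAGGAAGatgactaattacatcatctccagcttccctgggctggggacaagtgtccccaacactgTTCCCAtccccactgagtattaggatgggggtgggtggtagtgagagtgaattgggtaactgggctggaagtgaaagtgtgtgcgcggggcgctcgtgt
IKZF1, the first of its 3 starts, chr7:50304466-50304715, plus strand: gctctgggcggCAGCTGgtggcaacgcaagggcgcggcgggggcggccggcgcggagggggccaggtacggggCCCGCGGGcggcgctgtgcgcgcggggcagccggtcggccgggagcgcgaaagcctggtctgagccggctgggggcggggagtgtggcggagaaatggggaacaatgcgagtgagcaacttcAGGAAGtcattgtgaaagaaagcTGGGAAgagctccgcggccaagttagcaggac
Among all 35116 windows of 300 bases, 13.1% held the RUNX letters and 1.31% held them at 2 or more places. The distal RUNX3 start holds them at 2 places, as ACCACA, the letters of the opposite strand, at positions -131 and -123 from the start, and the proximal start and the single RUNX1 window hold none. The proximal RUNX3 start holds the EBF1 letters at 3 places, positions -47, -39 and -38 from the start, the last 2 overlapping. The EBF1 window holds 1 E protein, 1 ETS and 1 Ikaros match, found in 17.9%, 33.6% and 24% of all windows. The IKZF1 window holds a match to each of the same motifs and 1 to the EBF1 letters, which 19.1% of windows have. A match is a run of letters, not a shown binding site, and matches of different motifs were counted separately.

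For 8 of the 9 factors, lines differed more than treatments did. All 9 differed between the 4 lines (edgeR F test on 3 degrees of freedom), as did 93.1% of all genes tested, so a difference between lines is common in these data. Between pairs of lines 8 of 9 were called for Oci-Ly8 against Oci-Ly7 (background 62.8%), 9 for SUDHL6 against Oci-Ly7 (68.3%), 5 for Oci-Ly18 against Oci-Ly7 (68.2%), 9 for SUDHL6 against Oci-Ly8 (69.4%), 8 for Oci-Ly18 against Oci-Ly8 (66.9%) and 8 for Oci-Ly18 against SUDHL6 (67.4%). Differences between lines took 86.3% (TCF3) to 99.9% (RUNX3) of the variation of log2 CPM over the 16 group means in 8 of the 9 genes. IKZF1 was the exception, with 13.8% between lines, 33.7% between treatments and 52.5% in treatment effects that differ by line. Scaled by exonic length and averaged over the 4 DMSO groups, TCF3 had the highest level at 142 CPM per kb, ETS1 had 79.3, PAX5 47.1 and SPI1 34 CPM per kb. The other members averaged 4.01 (RUNX1) to 21.2 (EBF1) CPM per kb. This scale divides by all annotated exons of a gene joined together.

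**Figure D1:**
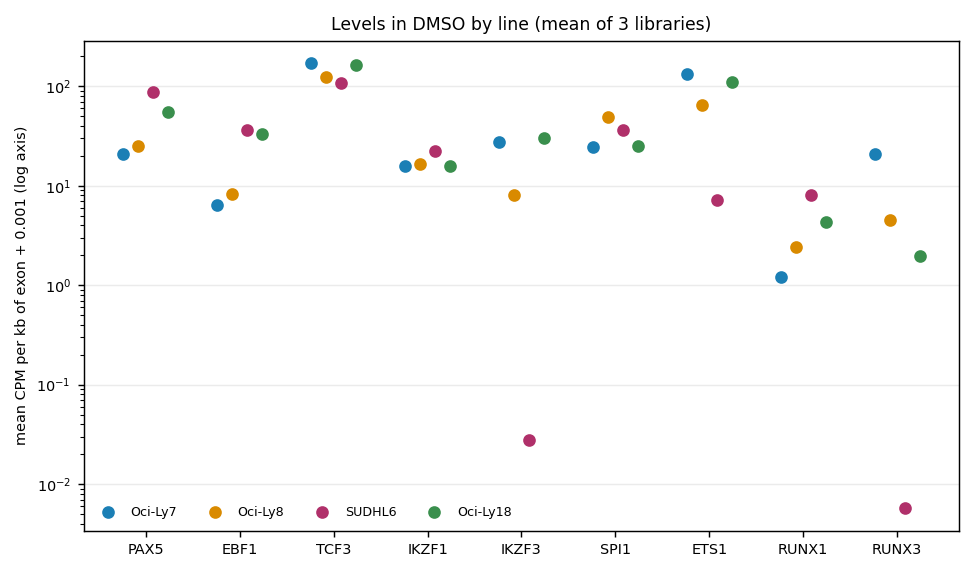
Mean level of each gene in the 3 DMSO libraries of each line, in CPM per kb of exon plus 0.001 on a log axis, with a colour for each line. IKZF3 and RUNX3 drop to near 0 in SUDHL6, ETS1 is low there, and TCF3 and IKZF1 sit close together in the 4 lines.

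SUDHL6 had the highest PAX5 level and, with Oci-Ly18, the highest EBF1, and held almost no IKZF3 or RUNX3 RNA. In bulk RNA, fewer cells with a transcript and less of it per cell cannot be told apart. PAX5 read 835, 845 and 773 CPM in the 3 SUDHL6 DMSO libraries, above Oci-Ly18 (509, 543 and 491), Oci-Ly8 (237, 287 and 173) and Oci-Ly7 (192, 202 and 189). No library of 1 line overlapped another except between Oci-Ly8 and Oci-Ly7, where the length-biased Oci-Ly8 library of 173 CPM lies below every Oci-Ly7 library. For EBF1 the order was SUDHL6 (230.3, 230 and 220.2 CPM), Oci-Ly18 (211, 207 and 200), Oci-Ly8 (56, 49.2 and 49.2) and Oci-Ly7 (37.3, 42.3 and 40.4). The top pair did not pass the test (1.1-fold, adjusted p = 0.0561). TCF3 varied little, with Oci-Ly7 (1010, 1046 and 1079 CPM) and Oci-Ly18 (986, 1003 and 1002) not separated by the test (adjusted p = 0.30), and Oci-Ly8 (780.3, 747 and 749) and SUDHL6 (691, 682 and 618) below them.

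IKZF1 was the most even member: SUDHL6 held 238, 241 and 250.2 CPM, Oci-Ly8 210, 210.1 and 127, Oci-Ly7 183, 163 and 172 and Oci-Ly18 164, 169 and 183. SUDHL6 stood above each other line by the test, and no pair of the other 3 lines passed (adjusted p = 0.579 to 1.0). The Oci-Ly8 library of 127 CPM is length-biased, and those of 210 and 210.1 CPM lay above every Oci-Ly7 and Oci-Ly18 library. The pairs of lines were not tested without the biased library. IKZF3, its close relative, was high in Oci-Ly18 (307, 308 and 297 CPM) and Oci-Ly7 (262, 293 and 269), a pair that the test did not separate (adjusted p = 0.233), and lower in Oci-Ly8 (84.5, 94.8 and 63.3). In SUDHL6 only 13 counts fell on IKZF3 over the 3 DMSO libraries, 0.269 CPM with a 95% exact Poisson interval of 0.143 to 0.46. Such intervals cover counting error only. Beside it stands an IKZF1 mean of 243 CPM in the same libraries.

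Of the ETS members, SPI1 was highest in Oci-Ly8 (92.2, 107 and 107 CPM), then SUDHL6 (76.3, 74.2 and 75.8), with Oci-Ly18 (50.9, 55.5 and 51.5) and Oci-Ly7 (46.4, 53.1 and 54.2) lowest and not separated (adjusted p = 0.689). ETS1 ran from 953, 1019 and 911 CPM in Oci-Ly7 through 742, 805 and 814 in Oci-Ly18 and 506, 533 and 368 in Oci-Ly8 to 53.4, 51.5 and 49.8 in SUDHL6, all pairs of lines being called. ETS1 in SUDHL6 was thus 18.6-fold below Oci-Ly7. The 2 RUNX genes ran in opposite orders. RUNX1 was highest in SUDHL6 (119, 134 and 124 CPM), then Oci-Ly18 (70.6, 65.2 and 66.9), Oci-Ly8 (38.2, 44.6 and 30.8) and last Oci-Ly7 (18.2, 19.2 and 18.8). RUNX3 had 89, 95.5 and 101 CPM in Oci-Ly7, 20.9, 18.4 and 22.2 in Oci-Ly8, 7.75, 9.15 and 9.67 in Oci-Ly18, and a single count over all 12 SUDHL6 libraries of the 4 treatments. The reversed order is a description of 4 lines and was not tested. A count of 0 in the 3 DOT1Li, EZH2i or Combo libraries of SUDHL6 allows up to 0.070, 0.0538 and 0.0588 CPM, taking 3 counts over the group as the limit.

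**Figure D2:**
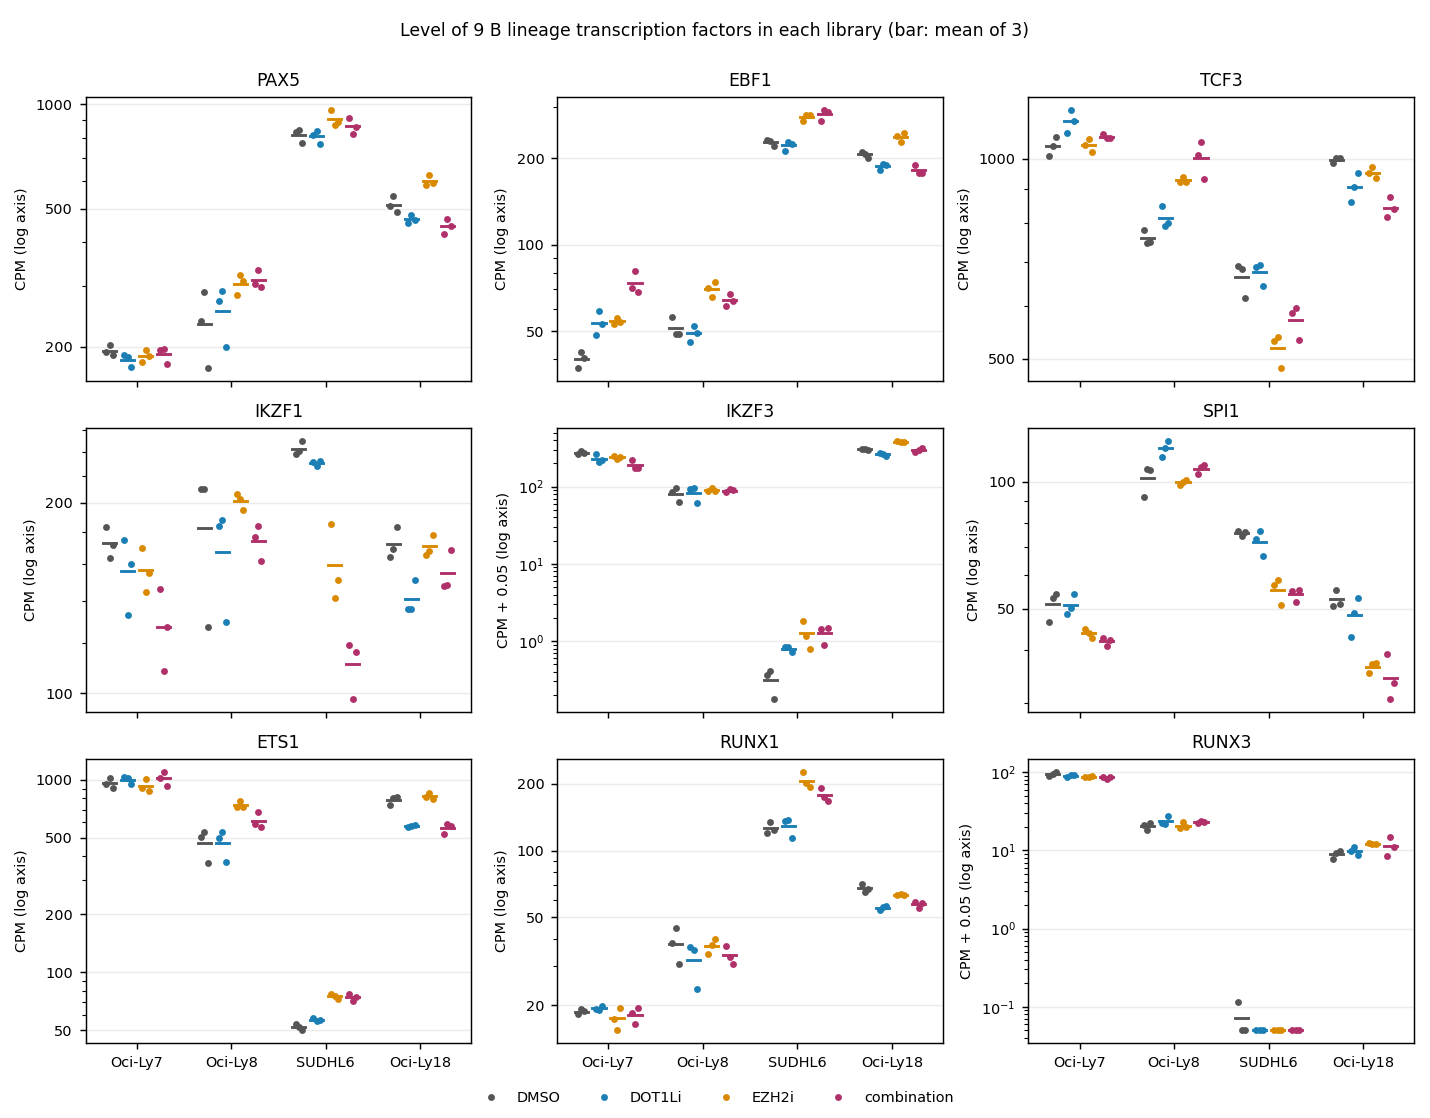
CPM of each gene in all 48 libraries on a log axis (for IKZF3 and RUNX3, CPM plus 0.05), by line and treatment; points are libraries and bars the mean of 3. Lines stand further apart than treatments for every gene but IKZF1, where SUDHL6 falls from a mean of 243 CPM in DMSO to 111 CPM in the combination.

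Averaged over the 4 lines, DOT1Li alone called none of the 9 genes, against 10.3% of all genes tested. At an unadjusted p under 0.05 DOT1Li moved 1 of them, IKZF1 (log2 fold change -0.16 ± 0.065 SE, adjusted p = 0.126), and DESeq2 also called none. Without both length-biased libraries IKZF1 was called (-0.18, adjusted p = 0.0136). EZH2i called 5 of 9 (background 28.2%): EBF1, PAX5, ETS1 and IKZF3 rose and SPI1 fell. With EZH2i IKZF1 (-0.16 ± 0.064, adjusted p = 0.0672) and RUNX1 (0.12 ± 0.051, adjusted p = 0.0744) did not pass. IKZF1 was called without both length-biased libraries (-0.21, adjusted p = 7.64e-04) and with the length offset (-0.22, adjusted p = 5.47e-04), replicate block or no filter. It was also called without Oci-Ly8 or Oci-Ly18. RUNX1 was called with the replicate block or library totals, and without Oci-Ly7, Oci-Ly8 or Oci-Ly18. All these averages keep SUDHL6, the only line with a called EZH2i effect for either gene. RUNX1 gave 0.71 in SUDHL6, beside -0.10, -0.033 and -0.098 in Oci-Ly7, Oci-Ly8 and Oci-Ly18. IKZF1 gave -0.61 in SUDHL6, beside -0.14, 0.14 and -0.013 in the same lines. The combination called 5 of 9 (background 46.4%), with EBF1, IKZF3 and ETS1 higher and IKZF1 and SPI1 lower. Against DOT1Li alone the combination called 4 (35.2% of all genes), EBF1 and ETS1 higher and IKZF1 and SPI1 lower. Against EZH2i alone it called 2 (25%), IKZF1 and ETS1, both lower. RUNX3 has no usable average, since SUDHL6 had no counts for it in the treated groups. Over the other 8 the median log2 fold change was -0.010 with DOT1Li, 0.15 with EZH2i and 0.037 with the combination, beside 0.011, 0.030 and 0.078 over all genes tested. None of the 9 was called for an averaged departure from additivity, and 0.0507% of all genes were. Such a departure is a log2 effect of both inhibitors unequal to the sum of the 2 single effects. DESeq2 called none of the 9 there. IKZF3 alone of the 9 had an unadjusted p under 0.05 (-0.44 ± 0.18, adjusted p = 0.568). Additivity was not tested within single lines, and departures of opposite sign in different lines can cancel in the average.

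Within single lines the members moved more, and not alike. With DOT1Li 1 member was called in Oci-Ly7 (background 2.9%), none in Oci-Ly8 (6.26%), none in SUDHL6 (4.86%) and 1 in Oci-Ly18 (6.15%). EZH2i called 2 in Oci-Ly7 (background 13.7%), 4 in Oci-Ly8 (17%), 7 in SUDHL6 (22.7%) and 4 in Oci-Ly18 (22%). The combination called 4 in Oci-Ly7 (background 29.8%), 4 in Oci-Ly8 (35%), 7 in SUDHL6 (39.3%) and 6 in Oci-Ly18 (35%). In Oci-Ly8 all 4 were higher with either treatment, while in Oci-Ly18 the combination left 5 of its 6 lower. Of all genes in Oci-Ly8, 1605 were called higher and 1409 lower with EZH2i, and 3215 higher and 2995 lower with the combination. In Oci-Ly18 the combination called 3740 higher and 2477 lower. With Oci-Ly8 fitted alone the combination called 2 members, and leaving out 1 library gave 3 to 7 in Oci-Ly18. In the 2 lines where DOT1Li called none, an unadjusted p under 0.05 was found for 1 member in Oci-Ly8, SPI1 (0.23 ± 0.074, adjusted p = 0.0516), and 1 in SUDHL6, IKZF3 (1.44 ± 0.56, adjusted p = 0.141), and DESeq2 called both. Beside the called member, 2 in Oci-Ly7 (TCF3 and IKZF3) and 4 in Oci-Ly18 (TCF3, IKZF1, IKZF3 and RUNX1) also had an unadjusted p under 0.05 and did not pass.

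**Figure D3:**
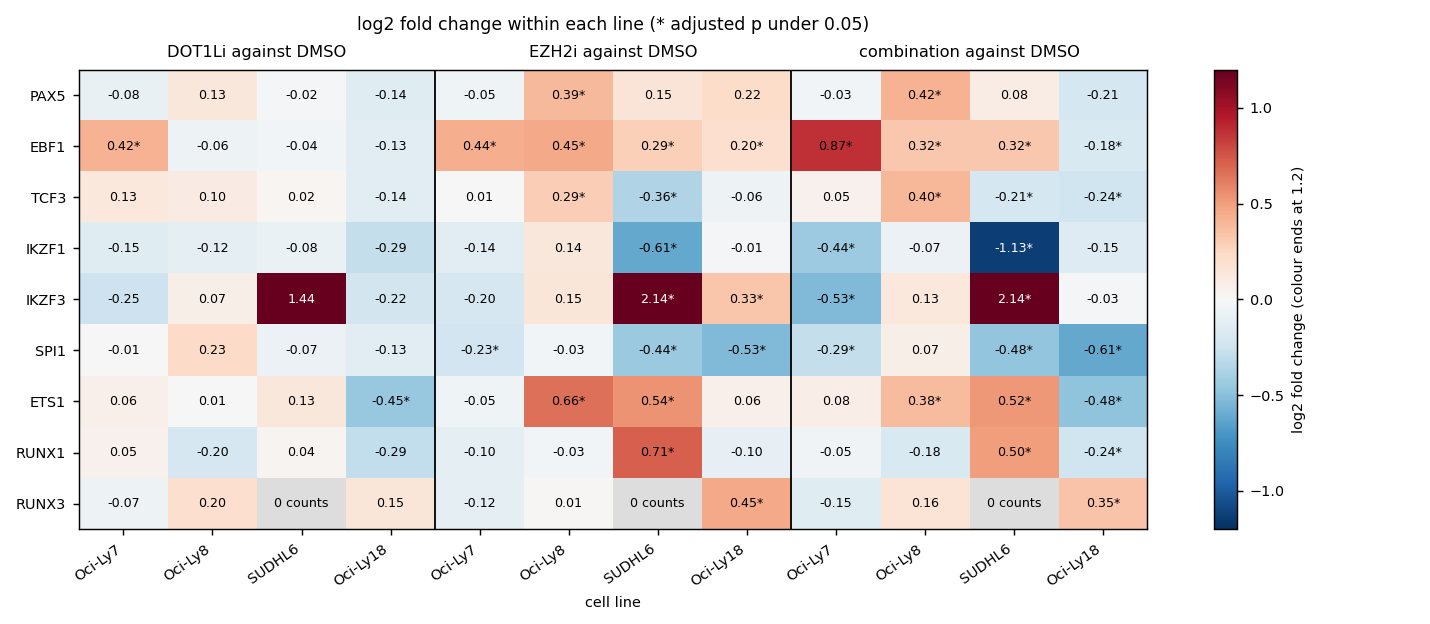
Fitted log2 fold change against DMSO of each gene (rows) in each line (columns) for DOT1Li, EZH2i and the combination; an asterisk marks an adjusted p under 0.05 and grey marks RUNX3 in SUDHL6, which has no counts to compare. With EZH2i EBF1 is called higher in 4 of 4 lines and SPI1 is called lower in 3. The largest changes outside IKZF3 are IKZF1 and RUNX1 in SUDHL6 and EBF1 in Oci-Ly7.

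EBF1 rose with EZH2i in all 4 lines. In Oci-Ly7 the DMSO libraries held 37.3, 42.3 and 40.4 CPM and the EZH2i libraries 53.1, 55.5 and 54.1 (log2 fold change 0.44 ± 0.071 SE, adjusted p = 9.74e-06). Oci-Ly8 went from 56, 49.2 and 49.2 to 70.7, 66.1 and 74.4 CPM (log2 fold change 0.45 ± 0.071 SE, adjusted p = 4.87e-06). SUDHL6, which started highest, went from 230.3, 230 and 220.2 to 269, 282 and 281 CPM (log2 fold change 0.29 ± 0.065 SE, adjusted p = 7.04e-04). The EZH2i and DMSO libraries did not overlap in any of these lines. In Oci-Ly18 the rise was the smallest, from 211, 207 and 200 to 238, 228 and 245 CPM (log2 fold change 0.20 ± 0.066 SE, adjusted p = 0.0191). That Oci-Ly18 call was lost without DMSO replicate 2 or 3 or EZH2i replicate 1 or 3 (adjusted p up to 0.0911) and with no filter on low counts (adjusted p = 0.116). The average over lines was 0.35 ± 0.034 (adjusted p = 3.21e-11), and a difference in the EZH2i effect between lines did not pass the test (adjusted p = 0.107).

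The combination split the lines for EBF1. Oci-Ly7 rose 1.83-fold, to 70.7, 81.2 and 68.5 CPM (log2 fold change 0.87 ± 0.071 SE, adjusted p = 5.97e-14), and was the only line where DOT1Li alone raised EBF1, to 48.5, 58.9 and 53.2 CPM (log2 fold change 0.42 ± 0.072 SE, adjusted p = 2.15e-04). On the log2 scale both single effects in that line, 0.42 and 0.44, sit beside 0.87 for the combination. In Oci-Ly8 the combination gave 61.4, 67.5 and 63.7 CPM (0.32 ± 0.071, adjusted p = 3.53e-04) and in SUDHL6 269, 294 and 288 CPM (0.32 ± 0.065, adjusted p = 6.92e-05), both above DMSO. Oci-Ly18 turned the other way, to 189, 177 and 177 CPM (log2 fold change -0.18 ± 0.066 SE, adjusted p = 0.0248), with every Combo library below every DMSO library. This fall lost its call without Combo replicate 2 or 3 or DMSO replicate 1 or 2 (adjusted p up to 0.0808), with library totals in place of TMM (adjusted p = 0.241) and with no filter (adjusted p = 0.0715). The effect differed between lines for the combination (adjusted p = 2.62e-11; background 43.8% of genes) and for DOT1Li (adjusted p = 3.70e-04; background 5.14%).

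**Figure D4:**
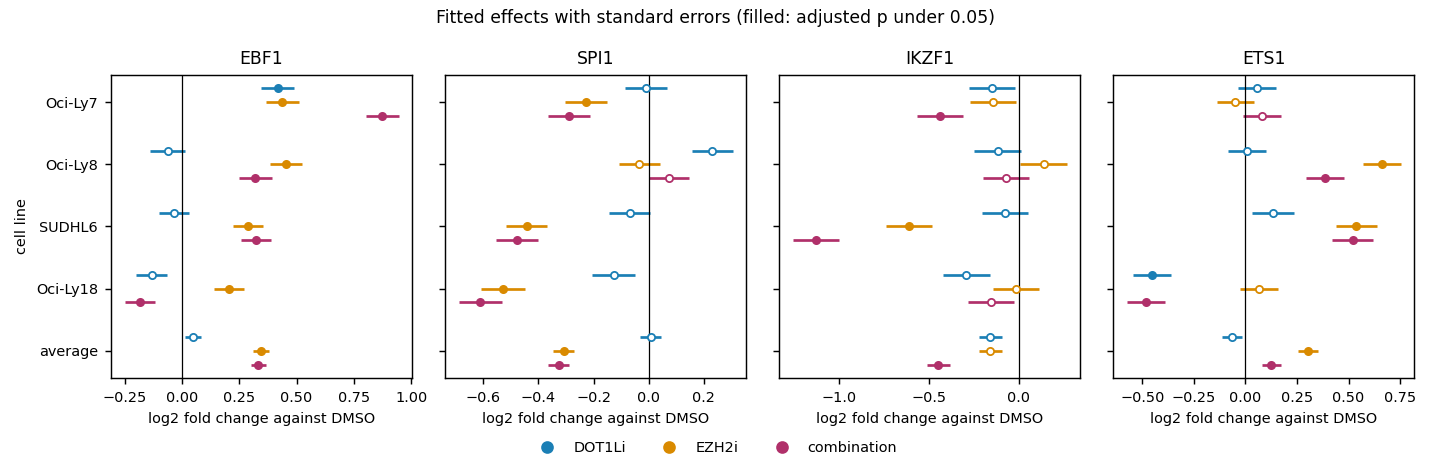
Log2 fold change against DMSO with its standard error for EBF1, SPI1, IKZF1 and ETS1 in each line and averaged over the 4 lines; filled points have an adjusted p under 0.05. EBF1 lies right of 0 with EZH2i in every line, and SPI1 is called lower with EZH2i in every line but Oci-Ly8. IKZF1 falls furthest in SUDHL6, and with the combination ETS1 points to opposite sides in Oci-Ly8 and Oci-Ly18.

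PAX5 passed the test in Oci-Ly8 alone of the 4 lines, and in Oci-Ly18 and SUDHL6 the call depended on the setting. In Oci-Ly8 the DMSO libraries read 237, 287 and 173 CPM, EZH2i libraries 282, 321 and 309 and Combo libraries 303, 333 and 297. Combo libraries all lay above the DMSO libraries, and the EZH2i libraries overlapped them. The EZH2i effect there was 0.39 ± 0.099 (adjusted p = 0.00469) and that of the combination 0.42 ± 0.099 (adjusted p = 8.14e-04). The third DMSO library, 173 CPM, is one of the length-biased pair. Without both of those libraries the effects were 0.22 (adjusted p = 0.0221) and 0.24 (adjusted p = 0.00414), still called. Leaving out Oci-Ly8 DMSO replicate 3 alone gave 0.21 for EZH2i and ended that call (adjusted p = 0.116). With Oci-Ly8 fitted alone neither was called (adjusted p = 0.19 and 0.0793). The averaged EZH2i effect of PAX5 was 0.18 ± 0.049 (adjusted p = 0.00423), and 0.11 without Oci-Ly8 (adjusted p = 0.16). In Oci-Ly18 the EZH2i libraries (584, 626 and 594 CPM) lay above and the Combo libraries (424, 466 and 447) below the DMSO libraries (509, 543 and 491), with 0.22 ± 0.098 (adjusted p = 0.098) and -0.21 ± 0.098 (adjusted p = 0.0974). Both Oci-Ly18 effects were called under 5 alternatives at like sizes: the line fitted alone (0.20, adjusted p = 8.41e-04, and -0.23, adjusted p = 1.49e-04), without both length-biased libraries (0.22, adjusted p = 0.00271, and -0.21, adjusted p = 0.00225), the replicate block (0.23, adjusted p = 0.0127, and -0.21, adjusted p = 0.0159), the length offset (0.22, adjusted p = 0.0309, and -0.25, adjusted p = 0.0072) and no filter (0.22, adjusted p = 0.038, and -0.23, adjusted p = 0.0202). In SUDHL6 every EZH2i library lay above every DMSO library, and the effect did not pass (0.15 ± 0.097, adjusted p = 0.2885). Without both length-biased libraries that SUDHL6 effect was called at a like size (0.15, adjusted p = 0.0388). The combination effect differed between lines (adjusted p = 0.00222), from -0.21 in Oci-Ly18 to 0.42 in Oci-Ly8.

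TCF3, the E protein gene, had averaged values near 0 (-0.031 ± 0.029 with EZH2i, adjusted p = 0.511, and -5.60e-04 ± 0.029 with the combination, adjusted p = 1.00), with called changes of opposite sign in different lines. In Oci-Ly8 it rose from 780.3, 747 and 749 CPM to 925, 939.8 and 922 with EZH2i (log2 fold change 0.29 ± 0.058 SE, adjusted p = 2.49e-04) and to 1013, 1060 and 934 with the combination (log2 fold change 0.40 ± 0.058 SE, adjusted p = 2.59e-07). In SUDHL6 it fell from 691, 682 and 618 to 531, 539 and 484 CPM with EZH2i (log2 fold change -0.36 ± 0.058 SE, adjusted p = 7.13e-06) and to 587, 597 and 534 with the combination (log2 fold change -0.21 ± 0.058 SE, adjusted p = 0.00264), a call that ended with library totals in place of TMM (-0.092, adjusted p = 0.211). That scaling moved the median of all genes by 0.12 in this comparison. In Oci-Ly18 the combination lowered it from 986, 1003 and 1002 to 817, 875 and 839.5 CPM (log2 fold change -0.24 ± 0.058 SE, adjusted p = 8.93e-04), and no change passed in Oci-Ly7. Treated and DMSO libraries did not overlap in any of the called comparisons. Unlike PAX5, TCF3 did not read low in the length-biased Oci-Ly8 DMSO library. The line difference passed for EZH2i (adjusted p = 4.40e-07; background 24% of genes) and for the combination (adjusted p = 9.15e-09).

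IKZF1, which encodes Ikaros, fell furthest in SUDHL6. There the DMSO libraries held 238, 241 and 250.2 CPM, DOT1Li libraries 232, 228 and 232, EZH2i libraries 185, 142 and 151 and Combo libraries 119, 97.9 and 116. The EZH2i effect was -0.61 ± 0.13 (adjusted p = 4.29e-04) and the combination left IKZF1 2.19-fold lower (log2 fold change -1.13 ± 0.13 SE, adjusted p = 5.19e-09), while DOT1Li alone was not called (-0.075 ± 0.13, adjusted p = 0.877). All EZH2i and Combo libraries lay below all DMSO libraries, and the lowest EZH2i library lay above the highest Combo library. In Oci-Ly7 the combination lowered IKZF1 from 183, 163 and 172 to 146, 108 and 127 CPM (log2 fold change -0.44 ± 0.13 SE, adjusted p = 0.00833), a call that ended without Combo replicate 2 (-0.34, adjusted p = 0.0856). Oci-Ly18 (-0.15 ± 0.13) and Oci-Ly8 (-0.069 ± 0.13) did not pass (adjusted p = 0.39 and 0.748). Oci-Ly8 DMSO replicate 3 and DOT1Li replicate 3 again read low, at 127 and 129 CPM, and without both the combination effect in Oci-Ly8 was -0.28 (adjusted p = 0.0382), now called. Averaged, the combination gave -0.45 ± 0.065 (adjusted p = 2.79e-07), -0.29 ± 0.065 against DOT1Li alone (adjusted p = 4.43e-04) and -0.29 ± 0.065 against EZH2i alone (adjusted p = 7.30e-04). Against DOT1Li the average without SUDHL6 was -0.035 (adjusted p = 0.828). Lines differed for EZH2i (adjusted p = 0.00921) and the combination (adjusted p = 2.67e-05), and the test over the other 3 lines did not pass (adjusted p = 0.539 and 0.228).

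IKZF3, which encodes Aiolos, rose from near 0 in SUDHL6, where IKZF1 fell, while in Oci-Ly7 the combination lowered both genes. In SUDHL6 the IKZF3 counts over 3 libraries went from 13 in DMSO to 32 with DOT1Li, 68 with EZH2i and 62 with the combination. The fitted rise was 4.42-fold with EZH2i (log2 fold change 2.14 ± 0.48 SE, adjusted p = 7.42e-04) and 4.4-fold with the combination (log2 fold change 2.14 ± 0.48 SE, adjusted p = 4.03e-04), and the level reached was still only 1.22 CPM (95% exact Poisson interval 0.946 to 1.55), far under the other lines. In Oci-Ly18 EZH2i raised it from 307, 308 and 297 to 390.2, 382 and 374 CPM (log2 fold change 0.33 ± 0.11 SE, adjusted p = 0.0221), and the combination left it at 283, 301 and 312 CPM. The Oci-Ly18 call was lost without any DMSO replicate or without EZH2i replicate 1 or 2 (adjusted p up to 0.0746). In Oci-Ly7 the combination lowered it from 262, 293 and 269 to 219, 175 and 176 CPM (log2 fold change -0.53 ± 0.11 SE, adjusted p = 1.49e-04), with no overlap. The averaged effects of 0.61 ± 0.13 for EZH2i (adjusted p = 2.70e-04) and 0.43 ± 0.13 for the combination (adjusted p = 0.00691) rested on SUDHL6. Without that line they were 0.093 (adjusted p = 0.332) and -0.14 (adjusted p = 0.0695). Lines differed with EZH2i (adjusted p = 5.36e-04) and with the combination (adjusted p = 1.79e-05).

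SPI1, which encodes the ETS factor PU.1, fell with EZH2i in 3 of the 4 lines. SUDHL6 went from 76.3, 74.2 and 75.8 CPM in DMSO to 57, 58.4 and 51.1 with EZH2i (log2 fold change -0.44 ± 0.074 SE, adjusted p = 1.19e-05) and 55.1, 51.8 and 55.5 with the combination (log2 fold change -0.48 ± 0.075 SE, adjusted p = 1.02e-06). Oci-Ly18 went from 50.9, 55.5 and 51.5 to 35.2, 37 and 37.2 (log2 fold change -0.53 ± 0.080 SE, adjusted p = 9.76e-07) and 39.1, 30.6 and 33.4 CPM (log2 fold change -0.61 ± 0.079 SE, adjusted p = 2.08e-08). Both lines had every EZH2i and Combo library below every DMSO library. Oci-Ly7 fell less, from 46.4, 53.1 and 54.2 to 44.8, 43.9 and 42.7 (log2 fold change -0.23 ± 0.077 SE, adjusted p = 0.0382) and 42.7, 40.9 and 42.2 CPM (log2 fold change -0.29 ± 0.077 SE, adjusted p = 0.00282). The EZH2i call in Oci-Ly7 was lost without DMSO replicate 2 or 3 or any EZH2i replicate (adjusted p up to 0.187), with library totals in place of TMM (adjusted p = 0.0735) and with no filter on low counts (adjusted p = 0.152). Oci-Ly8, the line with the most SPI1, had no called change: its DMSO libraries read 92.2, 107 and 107 CPM and its EZH2i libraries 98, 100.1 and 101 (-0.034 ± 0.073, adjusted p = 0.841). The lines differed in the EZH2i effect (adjusted p = 0.00125) and in that of the combination (adjusted p = 3.90e-06). The averaged values were -0.31 ± 0.038 (adjusted p = 8.87e-09) for EZH2i and -0.33 ± 0.038 (adjusted p = 6.03e-10) for the combination. Against EZH2i alone the combination gave -0.018 ± 0.038 for SPI1 (adjusted p = 0.872).

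ETS1 rose in 2 lines and fell in another. EZH2i raised it in Oci-Ly8 from 506, 533 and 368 to 720.2, 779 and 724 CPM (log2 fold change 0.66 ± 0.092 SE, adjusted p = 5.46e-07), and without both length-biased libraries by 0.51 (adjusted p = 2.25e-08). In SUDHL6, where ETS1 is scarce, it went from 53.4, 51.5 and 49.8 to 76.9, 75.5 and 72.1 CPM with EZH2i (log2 fold change 0.54 ± 0.099 SE, adjusted p = 4.95e-05) and 77, 70.5 and 74.2 with the combination (log2 fold change 0.52 ± 0.099 SE, adjusted p = 3.23e-05). The combination in Oci-Ly8 gave 590.1, 678 and 568 CPM (log2 fold change 0.38 ± 0.092 SE, adjusted p = 8.62e-04), or 0.23 without both length-biased libraries (adjusted p = 0.00464), and with that line fitted alone was not called (adjusted p = 0.0764). Oci-Ly18 showed the opposite sign, with DOT1Li: from 742, 805 and 814 CPM in DMSO it fell to 567, 572 and 584 with DOT1Li (log2 fold change -0.45 ± 0.092 SE, adjusted p = 6.46e-04) and 524, 587 and 578 with the combination (log2 fold change -0.48 ± 0.092 SE, adjusted p = 3.55e-05), while EZH2i libraries read 814, 856 and 799 CPM (0.064 ± 0.092, adjusted p = 0.698). Oci-Ly7, the line with the most ETS1, had no called change. Lines differed for DOT1Li (adjusted p = 0.00852, and 0.0559 without Oci-Ly18 DMSO replicate 2), EZH2i (adjusted p = 3.02e-05) and the combination (adjusted p = 6.95e-08). The ETS1 average was 0.30 ± 0.047 with EZH2i (adjusted p = 1.20e-06). The averaged combination effect, 0.13 ± 0.047 (adjusted p = 0.0243), was lost without any of 6 libraries, namely Combo replicate 2 of Oci-Ly7, Oci-Ly8 or Oci-Ly18, Oci-Ly7 DMSO replicate 3, Oci-Ly8 DMSO replicate 3 or Oci-Ly18 DMSO replicate 1 (values 0.087 to 0.15 over all leave-outs, adjusted p up to 0.071), and was -0.0058 without SUDHL6, 0.039 without Oci-Ly8 and 0.050 with a length offset. Against EZH2i alone the combination gave -0.18 ± 0.047 (adjusted p = 0.00321), and -0.054 without Oci-Ly18 (adjusted p = 0.566). It was also lost without Oci-Ly8 (adjusted p = 0.0556) and with library totals (adjusted p = 0.0567). Against DOT1Li alone it gave 0.19 ± 0.047 (adjusted p = 0.00106), lost without Oci-Ly8 (adjusted p = 0.0673) or SUDHL6 (adjusted p = 0.0719).

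RUNX1 rose in SUDHL6, the line with the most of it in DMSO. In SUDHL6 it went from 119, 134 and 124 CPM to 226, 201 and 193 with EZH2i (log2 fold change 0.71 ± 0.092 SE, adjusted p = 6.67e-08) and 192, 174 and 168 with the combination (log2 fold change 0.50 ± 0.092 SE, adjusted p = 1.75e-05), with no overlap. Oci-Ly18 fell slightly with the combination, from 70.6, 65.2 and 66.9 to 58.4, 55.1 and 57.9 CPM (log2 fold change -0.24 ± 0.098 SE, adjusted p = 0.048). That call sits at the threshold: 18 of the 48 leave-outs ended it (adjusted p up to 0.145), namely each of the 12 Oci-Ly18 libraries, Oci-Ly7 DMSO replicates 2 and 3 and EZH2i replicate 1, Oci-Ly8 Combo and EZH2i replicate 2, and SUDHL6 DMSO replicate 3. It also ended with DESeq2 (adjusted p = 0.0761), its size factors in edgeR (adjusted p = 0.0741), a stricter filter (adjusted p = 0.0667) and library totals (adjusted p = 0.23). DOT1Li alone gave 53.8, 55.3 and 56.5 CPM in Oci-Ly18, each below every DMSO library (-0.29 ± 0.098, adjusted p = 0.0672), which did not pass. It was called with the line fitted alone (adjusted p = 2.59e-04), without both length-biased libraries (adjusted p = 0.00529), with the replicate block (adjusted p = 0.0163), with the length offset (adjusted p = 0.0187) and with no filter (adjusted p = 0.0416). In Oci-Ly8 the DMSO libraries read 38.2, 44.6 and 30.8 and the Combo libraries 37.1, 33 and 30.6 CPM (-0.18 ± 0.11, adjusted p = 0.198), and without both length-biased libraries the effect was -0.31 (adjusted p = 0.00545), now called. The EZH2i effect differed between the 4 lines (adjusted p = 3.39e-06) and did not pass over the 3 lines other than SUDHL6 (adjusted p = 0.965). The same held for the combination (adjusted p = 2.63e-05 and 0.571).

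RUNX3 passed the test within Oci-Ly18 alone of the 4 lines, at a low level. In Oci-Ly18 it went from 7.75, 9.15 and 9.67 CPM in DMSO to 12.4, 12.1 and 12 with EZH2i (log2 fold change 0.45 ± 0.14 SE, adjusted p = 0.0122) and 8.39, 14.9 and 11 with the combination (log2 fold change 0.35 ± 0.14 SE, adjusted p = 0.0434). The EZH2i and DMSO libraries did not overlap, and the Combo and DMSO libraries did. Without Oci-Ly18 DMSO replicate 1 the EZH2i call was lost (adjusted p = 0.0858). The combination call was lost without Combo replicate 2 or 3 or DMSO replicate 1 or 2 (values 0.12 to 0.53 over all leave-outs, adjusted p up to 0.55), and with no filter (adjusted p = 0.0813), a length offset (adjusted p = 0.0768) or Oci-Ly18 fitted alone (adjusted p = 0.0765). Oci-Ly7, with the most RUNX3, read 85.9, 86.2 and 90.6 CPM with EZH2i and 86.7, 82.9 and 88.4 with the combination, below its DMSO mean of 95.1, and neither passed (adjusted p = 0.50 and 0.273). No RUNX3 count was found in the treated SUDHL6 libraries. The line difference passed for EZH2i (adjusted p = 0.0362) and the combination (adjusted p = 0.041). It was lost without any of 9 and any of 10 single libraries (adjusted p up to 0.127 and 0.10), for both Oci-Ly18 DMSO replicate 1, Oci-Ly7 DMSO replicates 2 and 3 and SUDHL6 DMSO replicate 1. For EZH2i the others were every EZH2i library of Oci-Ly18 and EZH2i replicates 1 and 2 of Oci-Ly7. For the combination they were every Combo library of Oci-Ly7, Combo replicate 3 of Oci-Ly18 and Combo replicate 2 of Oci-Ly8 and of SUDHL6. The combination's was also lost with no filter (adjusted p = 0.0507). Over the 3 lines other than SUDHL6 it passed for both (adjusted p = 0.0347 and 0.0373).

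A line difference was found for 2 of 9 members with DOT1Li, EBF1 and ETS1 (background 5.14% of genes). It was found for 7 of 9 with EZH2i, all but PAX5 and EBF1 (24%), and for 9 of 9 with the combination (43.8%). For EZH2i the PAX5 difference (adjusted p = 0.0956) was called without both length-biased libraries (0.0298) and with the length offset (0.0128), no filter (0.00944) or the replicate block (0.00363). That of EBF1 (0.107) was called with the replicate block (0.0319). Among the 12 changes within lines in the reported fit, SUDHL6 had the largest for IKZF1, IKZF3 and RUNX1, Oci-Ly8 for TCF3, PAX5 and ETS1, Oci-Ly18 for SPI1, and Oci-Ly7 for EBF1. For RUNX3 it was Oci-Ly18 among the 9 changes outside SUDHL6, where 1 count in all leaves none to compare. The PAX5 and ETS1 values of Oci-Ly8 were smaller without both length-biased libraries, as given above. Leaving out 1 library gave as little as 0.51 for ETS1 with EZH2i in Oci-Ly8, beside 0.54 in SUDHL6 over all libraries. EBF1 alone among the 9 was called higher with EZH2i in every line. The 3 treatments share the same DMSO libraries, so their effects are not independent of each other.

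Relatives and partners of the 9 genes were described from lists written with earlier results of these data known, by counts and medians. ID proteins bind E proteins and keep them off DNA. ID2 rose and ID3 fell in all 3 averaged comparisons, and ID1 did not pass. ID4 did not pass either, but it had counts in only 36 of 48 libraries, over group means of 0 to 270 CPM. Its average with DOT1Li had an SE of 929, so that average could not show a change. With the combination ID2 gave 0.72 ± 0.073, adjusted p = 7.88e-11, and ID3 gave -0.68 ± 0.055, adjusted p = 1.24e-14. TCF12, an E protein relative of TCF3, rose (0.31 ± 0.039, adjusted p = 1.14e-08 with EZH2i; 0.28 ± 0.039, adjusted p = 7.45e-08 with the combination), and TCF4 did not pass. ZNF521, an antagonist of EBF1, rose with DOT1Li (1.00 ± 0.31, adjusted p = 0.0264) and the combination (1.65 ± 0.29, adjusted p = 6.69e-06), over group means of 0.063 to 43.5 CPM. EBF1 had no relative at a like level: EBF2 had counts in only 2 of 48 libraries, and EBF3 and EBF4 reached at most 2.32 and 6.14 CPM in any group.

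Among Ikaros relatives IKZF2 (Helios) and IKZF4 (Eos) rose with EZH2i and the combination (0.46 ± 0.066, adjusted p = 2.83e-07, and 0.39 ± 0.10, adjusted p = 0.00185, for the combination), and IKZF5 fell with the combination (-0.14 ± 0.042, adjusted p = 0.00551). Of 11 ETS relatives tested none passed with DOT1Li, 2 rose and 2 fell with EZH2i, and 3 rose and 3 fell with the combination, where 28.2% and 46.4% of all genes were called. With the combination SPIB, the close relative of PU.1, fell (-0.49 ± 0.055, adjusted p = 1.85e-10), as did ELF1 (-0.33 ± 0.043, adjusted p = 6.08e-09), and ETV6 rose (0.31 ± 0.041, adjusted p = 1.49e-08). IRF8 and IRF4, which bind DNA with PU.1, moved apart: with the combination IRF8 gave -0.49 ± 0.070, adjusted p = 1.89e-07, and IRF4 0.23 ± 0.067, adjusted p = 0.00396, and both had the same signs with EZH2i. RUNX2, low in these lines at 0.0265 to 17.1 CPM, rose with the combination (1.82 ± 0.35, adjusted p = 2.04e-05), while CBFB, the shared RUNX cofactor, fell slightly (-0.13 ± 0.035, adjusted p = 0.00152).

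Among genes that PAX5 and EBF1 are known to activate, more were called higher than lower. Of 18, 5 rose and 1 fell with DOT1Li, 8 rose and 4 fell with EZH2i, and 10 rose and 3 fell with the combination, with medians of 0.15, 0.25 and 0.34 beside 0.011, 0.030 and 0.078 over all genes tested. Of all genes 10.3%, 28.2% and 46.4% were called, 902 higher and 922 lower with DOT1Li, 2787 higher and 2223 lower with EZH2i and 4569 higher and 3667 lower with the combination, and no test of the list was made. The clearest rises with the combination were IGLL1, a surrogate light chain gene of early B cells (3.55 ± 0.16, adjusted p = 1.52e-19, over group means of 0.128 to 615 CPM), RAG2, of antigen receptor recombination (1.39 ± 0.089, adjusted p = 7.62e-16), and BLNK, an adaptor of B cell receptor signalling (0.47 ± 0.040, adjusted p = 4.35e-14). With EZH2i BLNK (0.43 ± 0.040, adjusted p = 3.78e-12), RAG2 (0.97 ± 0.094, adjusted p = 1.65e-10) and LEF1 (0.32 ± 0.039, adjusted p = 1.03e-08) rose. With DOT1Li FOXO1 fell (-0.27 ± 0.035, adjusted p = 3.41e-07) and CD72 (0.25 ± 0.035, adjusted p = 1.32e-06) and CD22 (0.26 ± 0.055, adjusted p = 0.00122) rose. The list mixes early and mature B cell genes. Of the 9 germinal centre B cell markers 2 rose and 4 fell with the combination and 3 rose and 3 fell with EZH2i, and none passed with DOT1Li, where 46.4%, 28.2% and 10.3% of all genes were called. Among them MS4A1, which encodes CD20, rose (0.74 ± 0.050, adjusted p = 8.07e-17 with the combination) and S1PR2, a receptor that holds B cells in the germinal centre, fell (-0.49 ± 0.072, adjusted p = 1.65e-07). Of the 5 plasma cell markers 1 rose and 1 fell with DOT1Li, and 2 rose and 1 fell with EZH2i. With the combination 1 rose and 1 fell, where the same 10.3%, 28.2% and 46.4% of all genes were called. PRDM1, the plasma cell factor that opposes PAX5, rose in all 3 averaged comparisons (1.81 ± 0.14, adjusted p = 1.65e-13 with the combination), while JCHAIN of the same list fell in all 3.

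Of 8 tested genes that PAX5 is known to repress, 1 rose and 2 fell with DOT1Li, 1 rose and 1 fell with EZH2i, and 4 rose and 2 fell with the combination, beside 10.3%, 28.2% and 46.4% of all genes. Their median log2 fold changes were -0.066, 0.99 and 1.56, beside 0.011, 0.030 and 0.078 over all genes tested. The medians include genes near 0 in these lines, such as CSF1R, and no test of the list was made. NOTCH1 rose with EZH2i (1.18 ± 0.20, adjusted p = 5.23e-06) and the combination (1.49 ± 0.17, adjusted p = 7.24e-10). JCHAIN, a plasma cell gene, fell in all 3 (-0.94 ± 0.11, adjusted p = 5.07e-09 with the combination). CSF1R, a macrophage receptor, was called higher with the combination but reached at most 1.2 CPM in any library. The summed myeloid markers were 0.202 to 19.8 CPM in DMSO and 0.49 to 22.9 CPM in Combo libraries, and their part in the result was not tested. Of the 6 myeloid markers ITGAM had counts in 44 of 48 libraries, LYZ in 38, CD14 in 37, CSF1R in 34, MPO in 18 and CD163 in 12. Of 13 lineage factors of other blood cells, 8 were tested and none passed with DOT1Li, EZH2i or the combination. GATA1 was not analysed here.

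Other genes followed some members closely across treatments. Likeness is Pearson's correlation over the 16 group means of log2 CPM after each line's own mean is removed, which leaves 12 free values, among 10228 protein-coding genes. Picking the highest of so many always gives high values, so these are descriptions only. SPI1 was most like TPR and CENPC (0.98 and 0.98), EBF1 like PELI2 and SNTB1 (0.96 and 0.93), IKZF3 like PALM2AKAP2 and GOLM2 (0.94 and 0.92) and TCF3 like TLN1 and HCFC1 (0.93 and 0.92). For PAX5 they were SLC9A3R1 and ARID1B (0.92 and 0.87), for IKZF1 LRRC59 and DOCK6 (0.91 and 0.90), for ETS1 APLP2 and TASOR (0.90 and 0.88) and for RUNX1 FAM200A and RPGR (0.87 and 0.86). RUNX3, with SUDHL6 near 0, had the loosest, SNAPC2 and MPST (0.83 and 0.82). The other 8 members were not candidates.

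By GENCODE 29 on GRCh38, PAX5 lies at chr9:36833269-37034268, EBF1 at chr5:158695916-159099916, TCF3 at chr19:1609291-1652615, IKZF1 at chr7:50304068-50405101 and IKZF3 at chr17:39757718-39864312. SPI1 lies at chr11:47354860-47378547, ETS1 at chr11:128458761-128587558, RUNX1 at chr21:34787801-36004667 and RUNX3 at chr1:24899511-24965121. IKZF1 is on the plus strand and the other 8 are on the minus strand. Exons of PAX5 and IKZF1 overlap an antisense gene over 80 and 110 bases, 0.857% and 1.01% of their exonic length, and those genes had 46 and 1 counts in all 48 libraries. No other member shares exonic bases with an annotated gene.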

How the data were processed

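RNA from 48 libraries (4 cell lines, 4 treatments, 3 libraries each) was made from poly(A) RNA with a stranded kit, per the labels' protocols. The deposited table holds raw whole-number counts of reads per gene, not normalized. The submitters' processing notes name STAR, DESeq2 and the GRCh38 (hg38) build, with no version or role, and neither those nor the doses are given in the sources used here. The 9 members and all gene lists were chosen with earlier results of these data known.

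Counts were analysed as deposited with edgeR 4.0.16 in R 4.3.3 (TMM, filterByExpr on the 16 groups, quasi-likelihood F test, Benjamini-Hochberg over 17749 genes, called at an adjusted p under 0.05). All 48 libraries entered a single fit of 16 groups with 32 residual degrees of freedom. Averages weight the 4 lines equally, and line differences are F tests on 3 degrees of freedom. The line differences over 3 lines, without SUDHL6, were chosen after seeing the data. Levels are CPM on TMM-scaled totals. Per-kilobase levels use the joined exons of GENCODE 29. Members were taken by symbol. From each list, at most the 3 called genes with the smallest adjusted p per averaged comparison were named. The T cell and myeloid markers, EBF3, EBF4, TCF4, ID1 and ID4 were named after their values were seen.

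The tests were tried on simulated counts first. Alternatives were DESeq2 1.42.0 and its size factors, library totals, other filters, a length offset, a replicate block, each line alone, and leaving out libraries or lines. Fits that left out 1 library reused the dispersion trend of the full fit. No pair of libraries in a group agreed within counting noise (lowest chi-square per degree of freedom 1.84).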

Additional observations from a re-analysis of the deposited data

Results flagged for a closer look

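The results below met 1 rule: the effect of a treatment differed between the 4 lines by edgeR's F test on 3 degrees of freedom, with adjusted p over 17749 genes. With DOT1Li the effect differed for EBF1 (adjusted p = 3.70e-04) and ETS1 (0.00852). EBF1 was higher in Oci-Ly7 and ETS1 lower in Oci-Ly18, with no called change of either in another line.

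With EZH2i it differed for TCF3 (adjusted p = 4.40e-07), IKZF1 (0.00921), IKZF3 (5.36e-04), SPI1 (0.00125), ETS1 (3.02e-05), RUNX1 (3.39e-06) and RUNX3 (0.0362). TCF3 rose in Oci-Ly8 and fell in SUDHL6. IKZF1 fell and RUNX1 rose in SUDHL6 only among the 4 lines tested.

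With the combination it differed for PAX5 (adjusted p = 0.00222), EBF1 (2.62e-11), TCF3 (9.15e-09), IKZF1 (2.67e-05), IKZF3 (1.79e-05), SPI1 (3.90e-06), ETS1 (6.95e-08), RUNX1 (2.63e-05) and RUNX3 (0.041). EBF1 rose in 3 lines and fell in Oci-Ly18, ETS1 rose in Oci-Ly8 and SUDHL6 and fell in Oci-Ly18, and IKZF3 fell in Oci-Ly7 and rose in SUDHL6.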

How the results depend on the processing

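Averaged values that changed sign with a call on either side were TCF3 with the combination under library totals (0.090), EBF1 in the combination against EZH2i without Oci-Ly18 (0.11), and, without SUDHL6, IKZF3 (-0.14), ETS1 (-0.0058) and RUNX1 (-0.16) with the combination. RUNX1 with the combination was also -0.13 under the length offset. The causes were not tested. Sign changes of values called under neither setting were not counted.

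Counts of the 9 genes called moved as follows. DOT1Li averaged called 1 (reported 0) with the length offset, without a filter, with the replicate block and without both length-biased libraries. The combination against DOT1Li called 2 (reported 4) without SUDHL6. The combination against EZH2i called 5 (reported 2) without Oci-Ly7 and with the length offset, and 4 with the replicate block and without both length-biased libraries. DOT1Li called 2 in Oci-Ly7 (reported 1) without both length-biased libraries. In Oci-Ly8 it called 1 (reported 0) with DESeq2, its size factors, library totals, the stricter filter of 10 counts in 24 libraries and the replicate block. In SUDHL6 it called 1 (reported 0) with DESeq2 and without a filter. In Oci-Ly18 (reported 1) it called 6 with the line fitted alone, 2 with the length offset, 3 without a filter, 4 with the replicate block and 4 without both length-biased libraries. EZH2i in Oci-Ly7 called 1 (reported 2) with library totals and without a filter, and the combination in Oci-Ly8 called 2 (reported 4) with the line fitted alone. Line differences with DOT1Li numbered 5 with the replicate block and 4 without both length-biased libraries (reported 2).

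Leaving out each library in turn gave 0 to 1 calls for averaged DOT1Li, 5 to 7 for EZH2i, 4 to 6 for the combination, 4 to 5 against DOT1Li and 2 to 3 against EZH2i. Within Oci-Ly7, within Oci-Ly8, within SUDHL6 and within Oci-Ly18 it gave 1 to 1, 0 to 2, 0 to 0 and 1 to 2 for DOT1Li, 1 to 2, 3 to 4, 7 to 7 and 2 to 5 for EZH2i, and 3 to 4, 4 to 5, 7 to 7 and 3 to 7 for the combination. Line differences ranged over 1 to 3, 6 to 8 and 8 to 9. No call of a member changed sign in these fits.

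Over all alternatives and leave-outs the number of all genes called ran over 2 to 97 (reported 9) for additivity, 115 to 1056 (reported 514), 296 to 1817 (reported 1111), 395 to 2054 (reported 863) and 722 to 2007 (reported 1092) for DOT1Li in the same 4 lines in that order, 1009 to 4228 (reported 3014) and 3447 to 7063 (reported 6210) for EZH2i and the combination in Oci-Ly8, and 687 to 1802 (reported 913) for line differences with DOT1Li. Of 18 genes most like a member by Pearson's r, 4 were among the 2 highest by Spearman's rho.

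Libraries of a line with the same replicate number correlated above 0.1 in 69 of 72 pairs (lowest 0.060), and in 71 of 72 best with their own number. The labels name no shared batch, so the numbers were not taken to pair samples in the reported fit. At 5174269 counts or more per library, RUNX3 and IKZF3 in SUDHL6 were the members limited by depth.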
